A study of Mus musculus with 110 samples.

Results

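Immediate early genes are transcribed within minutes of a stimulus, before any new protein is made, and their messenger RNAs are short-lived. The genes described here are the 10 named Fos, Fosb, Fosl2, Jun, Junb, Atf3, Egr1, Maff, Nr4a1 and Nr4a3, chosen by symbol. All 10 were found among the 56884 genes counted in each tissue. Fos, Fosb and Fosl2 belong to the Fos family and Jun and Junb to the Jun family, whose members pair to form the transcription factor AP-1. Atf3 is a stress-induced leucine-zipper factor that can pair with Jun proteins, and Maff is a small Maf protein that pairs with Nrf2-type factors. Egr1 is a zinc-finger factor induced through the kinase ERK and serum response factor. Nr4a1 and Nr4a3 are orphan nuclear receptors that respond to cyclic AMP and, in brown fat and liver, to adrenergic or glucagon signals. Because all of these transcripts also respond to handling, stress and the time after death, their spread between animals is described beside each difference.

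RNA sequencing was performed on liver, interscapular brown adipose tissue (iBAT), inguinal white adipose tissue (iWAT) and epididymal white adipose tissue (eWAT) of single-housed male wild-type C57BL/6N mice aged 16 weeks. Ctrl_RT mice ate a control diet with 0.86% methionine for 7 days at 22 °C, and MetR_RT mice ate a diet with 0.12% methionine for the same time. Ctrl_CE and MetR_CE mice ate these diets for 7 days and were then exposed to 4 °C for 24 h. Cold mice were therefore killed 24 h later in the experiment than mice kept at 22 °C. In every comparison of cold with 22 °C, this delay cannot be told apart from cold. Neither diet contained cysteine, so restriction of methionine here was restriction without dietary cysteine, and the control mice shared that lack. Mice were killed in the light phase with CO2 followed by cervical dislocation, and the tissues were snap-frozen. The labels give no order or time of dissection, so the handling of single mice cannot be followed.

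The data comprised 110 libraries from 28 mice, of which 105 entered the tests. Liver libraries held 6987895 to 33444374 counts, and the shallowest and deepest fat libraries held 12672686 and 33372110. Left out were iBAT Ctrl_CE replicate 5, eWAT Ctrl_RT replicates 2, 4 and 5 and eWAT MetR_RT replicate 7, which left 4 libraries in eWAT Ctrl_RT and 6 or 7 in every other group. Each tissue carried its defining markers. The summed level of 4 hepatocyte genes was 47546 to 75935 CPM (counts per 1000000 counts of the library) in liver, and the brown fat genes Ucp1 and Zic1 were at 0 there. The hepatocyte genes also reached 6814 CPM in eWAT Ctrl_RT libraries, and their source there was not tested. In 3 iBAT libraries the treatment tag differed from the title, and the title was used. One mouse, Ctrl_CE replicate 4, stood apart: the neutrophil genes S100a8, S100a9 and Retnlg summed to 39.4 CPM in its liver (other Ctrl_CE libraries 0.135 to 5.79), 28.6 in its iBAT (0.208 to 1.97), 40.2 in its iWAT (0.708 to 1.95) and 48.8 in its eWAT (0.796 to 4.25). Fosl2 was also highest in this mouse in all 4 tissues. Within a tissue, results that rest on it are given with and without it. In bulk tissue, a lower level may stem from fewer cells of a type or from less RNA per cell, and these cannot be told apart.

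Many immediate early promoters hold a cyclic AMP response element, TGACGTCA, or its shorter core TGACG, which factors of the CREB and ATF families bind. Promoters of the RefSeq gene models (GRCm38.p6), from 250 bases before to 50 bases after the transcription start, were searched on both strands for 9 of the 10 genes. Egr1 was left out of the search, so none of the motif counts covers it. TGACG occurred in 7 of these 9 genes and in 20.8% of 32817 mouse promoters of the same length. The 7 were Fos, Fosb, Junb, Atf3, Maff, Nr4a1 and Nr4a3, while Fosl2 and Jun held none. The full TGACGTCA, which contains the core, was found only in Maff among the 9 and in 1.79% of all promoters. The AP-1 site TGACTCA or TGAGTCA was found in none of the 9 and in 5.20% of all promoters, and the CArG box in none and in 1.63%. An Egr site, GCGTGGGCG or GCGGGGGCG, was found in 4 of the 9 and in 3.47% of all promoters. A match is a description of the letters and not a bound site. Sites more than 250 bases before the start were not searched, so an absence covers only this window. The 250 bases before the start are shown for 5 genes on which the results below turn, Fos, Nr4a1, Nr4a3, Atf3 and Maff, because they differ in number and place of the core. They are written 5′ to 3′ on the strand of the gene, with TGACG or its complement CGTCA in capitals. They lie at chr12:85473640-85473889 (plus strand) for Fos, chr15:101266596-101266845 (plus) for Nr4a1, chr4:48045055-48045304 (plus) for Nr4a3, chr1:191183334-191183583 (minus) for Atf3 and chr15:79347270-79347519 (plus) for 1 of 3 annotated starts of Maff.
Fos: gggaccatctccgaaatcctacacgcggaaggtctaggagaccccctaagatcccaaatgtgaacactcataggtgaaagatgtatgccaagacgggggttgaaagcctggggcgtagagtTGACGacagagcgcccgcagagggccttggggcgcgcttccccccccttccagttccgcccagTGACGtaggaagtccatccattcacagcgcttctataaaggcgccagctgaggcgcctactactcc
Nr4a1: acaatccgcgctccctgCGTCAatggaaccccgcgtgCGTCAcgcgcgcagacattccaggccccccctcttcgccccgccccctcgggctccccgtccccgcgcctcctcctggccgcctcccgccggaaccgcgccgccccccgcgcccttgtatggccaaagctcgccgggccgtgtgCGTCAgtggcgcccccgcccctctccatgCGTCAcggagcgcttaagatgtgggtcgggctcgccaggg
Nr4a3: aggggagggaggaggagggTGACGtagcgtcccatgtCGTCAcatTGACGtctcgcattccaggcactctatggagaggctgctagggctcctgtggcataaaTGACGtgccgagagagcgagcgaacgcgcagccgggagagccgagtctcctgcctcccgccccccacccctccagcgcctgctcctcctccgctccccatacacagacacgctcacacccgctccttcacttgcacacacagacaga
Atf3: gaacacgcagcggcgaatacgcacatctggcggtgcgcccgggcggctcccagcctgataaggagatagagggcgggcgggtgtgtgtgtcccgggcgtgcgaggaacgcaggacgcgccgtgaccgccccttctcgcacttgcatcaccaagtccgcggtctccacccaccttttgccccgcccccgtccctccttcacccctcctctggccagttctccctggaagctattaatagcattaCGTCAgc
Maff: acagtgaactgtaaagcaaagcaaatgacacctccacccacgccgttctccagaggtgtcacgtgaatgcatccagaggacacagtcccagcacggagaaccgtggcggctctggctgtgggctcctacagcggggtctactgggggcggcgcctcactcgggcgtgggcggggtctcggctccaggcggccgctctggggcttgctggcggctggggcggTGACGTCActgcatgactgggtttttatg
The core began 129 and 66 bases before the start in Fos and 7 bases before it in Atf3. In Nr4a1 it began at 233, 213, 69 and 40 bases before the start, and in Nr4a3 at 231, 213, 205 and 147. In Maff both strands of the full palindrome matched, at 29 and 26 bases before the start.

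In Ctrl_RT mice the genes differed in where they were most abundant, as the plot of levels by tissue and group shows. Levels of the members are in CPM adjusted by TMM normalization factors, which were estimated separately in each tissue. They compare 1 gene across tissues, not genes with each other, and no factor was shared between tissues. Fosl2 had medians of 81.9 CPM in eWAT and 71.4 in iWAT, which overlapped, then 48.8 in iBAT and 10.8 in liver, each below the range of the tissue before it. Atf3 was highest in iWAT with a median of 10.4 CPM, above all libraries of eWAT (4.29), iBAT (2.56) and liver (2.18), which overlapped one another. Maff was highest in iBAT at 31.8 CPM, followed with overlap by iWAT (9.29) and eWAT (5.66), and was lowest in liver (2.14), below every eWAT library. The median of Nr4a1 was 132 CPM in iBAT, against 12.5 in eWAT, 11.5 in iWAT and 1.61 in liver, but the iBAT libraries ran from 18.1 to 211 CPM and overlapped those of eWAT. Nr4a3 had medians of 2.23 CPM in iBAT, 1.72 in eWAT and 1.32 in iWAT, which overlapped, and its highest liver library held 2 counts. For Fos, Fosb, Jun, Junb and Egr1 every tissue overlapped the next in order. Fos ran from 16.9 CPM in iWAT over 11.4 in eWAT and 7.18 in iBAT to 1.42 in liver.

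**Figure D1:**
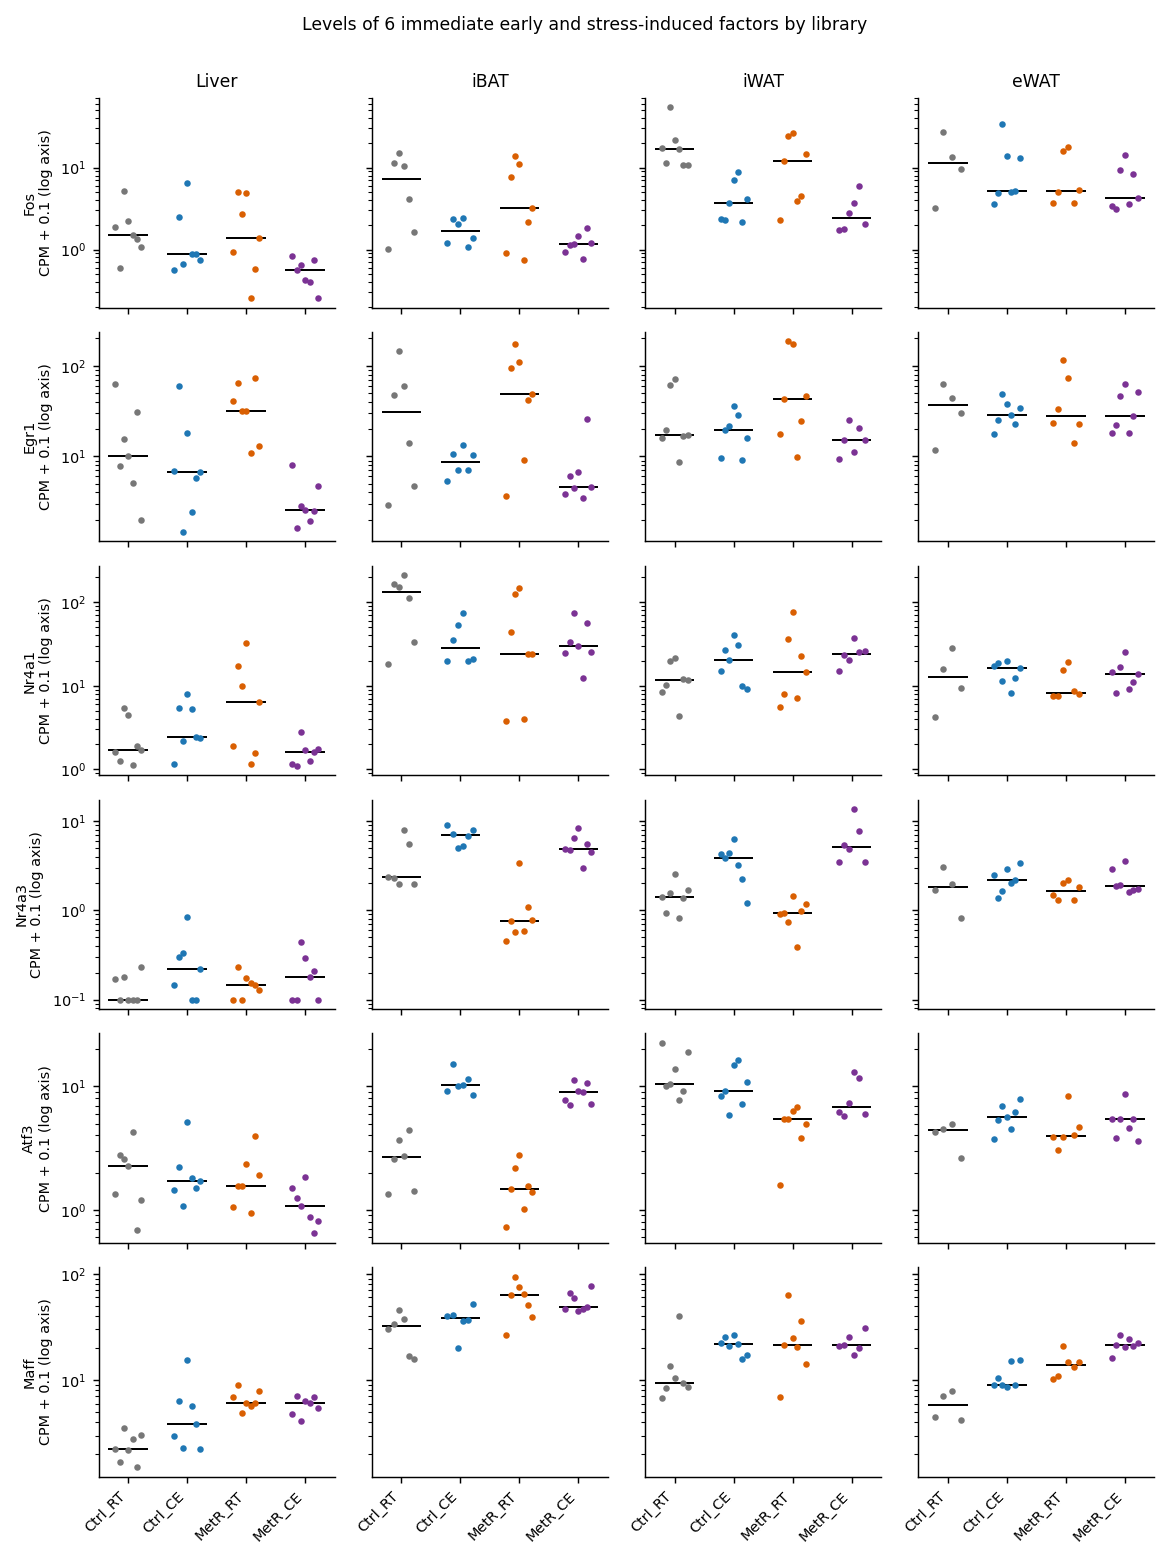
Levels in CPM of Fos, Egr1, Nr4a1, Nr4a3, Atf3 and Maff (log axis, 0.1 added) in each library (points), by tissue (columns) and by group (Ctrl_RT, Ctrl_CE, MetR_RT, MetR_CE), with a bar at the group median. Nr4a1 in iBAT Ctrl_RT spanned 18.1 to 211 CPM, whereas Atf3 in the same libraries spanned 1.25 to 4.36 CPM, below all of the iBAT cold libraries.

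Differences were tested with edgeR's quasi-likelihood test across all genes of a tissue, with Benjamini-Hochberg adjustment. A gene was called when its adjusted p was below 0.05 and it changed at least 1.5-fold in either direction, and log2 fold changes are given ± their standard error. Cold exposure was compared within each diet, and the diet within each temperature. Ctrl_CE against Ctrl_RT and MetR_CE against MetR_RT share no libraries, but they share 1 estimate of the spread.

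In iBAT, cold on the control diet raised Atf3 and Nr4a3 and lowered Fos and Egr1. These were 4 of 10 members called, 2 in each direction, beside 14.7% of all 23915 genes tested, 4.97% up and 9.72% down. Atf3 lay between 1.25 and 4.36 CPM in Ctrl_RT libraries (median 2.56) and between 8.36 and 15.1 in Ctrl_CE (median 10.1). The ranges did not overlap, and the log2 fold change was 2.04 ± 0.25 (adjusted p = 1.74e-07). Fos lay between 0.917 and 15 CPM at 22 °C (median 7.18) and between 0.971 and 2.33 in the cold (median 1.6). The room temperature libraries reached down to the cold ones, while none of the cold libraries reached the room temperature median. The difference was -2.12 ± 0.60 (adjusted p = 0.00616). Egr1 ranged from 2.82 to 144 CPM at 22 °C (median 30.5) and from 5.26 to 13.4 in the cold (median 8.6), a log2 fold change of -2.35 ± 0.76 (adjusted p = 0.0162). Without Ctrl_RT replicate 3, its highest library, Egr1 was no longer called, at -1.52 (adjusted p = 0.111). Nr4a3 had medians of 2.23 CPM at 22 °C (1.87 to 7.86) and 6.9 CPM in the cold (4.91 to 9.02), and its call at 0.92 ± 0.36 (adjusted p = 0.0477) was lost on leaving out any of 16 of the 26 libraries, with adjusted p from 0.00442 to 0.109. Nr4a1 fell short of the threshold at -1.64 ± 0.65 (adjusted p = 0.0526), with 18.1 to 211 CPM at 22 °C and 19.7 to 73.5 in the cold. Fosb was at -1.42 ± 0.67 (adjusted p = 0.106), and Fosl2, Jun, Junb and Maff lay between -0.36 and 0.33. Brown adipocyte markers summed to 8041 to 11143 CPM in Ctrl_RT and to 13220 to 15192 CPM in Ctrl_CE, and their part in these differences was not tested.

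The same tissue gave a like set of calls on the MetR diet, in other mice. MetR_CE against MetR_RT called Fos, Egr1, Atf3 and Nr4a3, 4 of 10 members beside 8.53% of all genes (3.41% up and 5.13% down). Atf3 lay between 0.626 and 2.66 CPM in MetR_RT (median 1.36) and between 6.95 and 11.2 in MetR_CE (median 8.96), again without overlap, and rose by 2.57 ± 0.26 (adjusted p = 1.17e-08). Nr4a3 had medians of 0.652 CPM in MetR_RT (0.358 to 3.26) and 4.77 in MetR_CE (2.9 to 8.17), with overlap. Its log2 fold change was 2.40 ± 0.39 (adjusted p = 2.47e-05). Fos fell by 2.32 ± 0.60 (adjusted p = 0.00393), from a median of 3.15 CPM (0.645 to 13.8) to 1.07 (0.674 to 1.72). Egr1 fell by 3.18 ± 0.73 (adjusted p = 0.00138), from a median of 48.4 CPM (3.53 to 173) to 4.54 (3.37 to 25.7). The lowest MetR_RT libraries of both genes reached down to the cold ones.

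In iWAT, cold on the control diet lowered the AP-1 genes Fos, Fosb and Junb and raised Nr4a3. That was 4 of 10 members called beside 15.9% of all 26428 genes, 5.99% up and 9.94% down. Fos lay between 10.6 and 54.1 CPM in Ctrl_RT (median 16.9) and between 2.08 and 8.8 in Ctrl_CE (median 3.65). Every cold library was below every room temperature library, and the log2 fold change was -2.24 ± 0.51 (adjusted p = 0.00131). Fosb had medians of 4.74 CPM (0.571 to 18.6) and 0.782 CPM (0.419 to 2.1), with overlap, and fell by 2.34 ± 0.65 (adjusted p = 0.00699). Junb had medians of 31.8 CPM (26.3 to 61.9) and 19.9 CPM (14.6 to 34.2), with overlap, and fell by 0.89 ± 0.23 (adjusted p = 0.00375). Nr4a3 moved the other way, from 1.32 CPM (0.729 to 2.48) to 3.73 CPM (1.11 to 6.23), a rise of 1.35 ± 0.35 (adjusted p = 0.00418). Egr1 did not pass, at -0.58 ± 0.54 (adjusted p = 0.459), nor did Nr4a1, at 0.81 ± 0.47 (adjusted p = 0.202), and Atf3, Jun, Fosl2 and Maff lay between -0.36 and 0.64. Macrophage markers summed to 413 to 665 CPM in Ctrl_RT and to 88.5 to 465 CPM in Ctrl_CE, and brown adipocyte markers to 45.6 to 759 CPM and 690 to 4876 CPM. Their part in the changes was not tested. On the MetR diet, cold called Fos, Egr1 and Nr4a3, 3 of 10 beside 1.88% of all genes.

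Nr4a3 showed the widest separation of these 3. Its MetR_RT libraries lay between 0.289 and 1.35 CPM (median 0.843) and its MetR_CE libraries between 3.35 and 13.5 (median 5), without overlap, and it rose by 2.90 ± 0.38 (adjusted p = 8.55e-05). Fos fell by 2.09 ± 0.54 (adjusted p = 0.0228), from a median of 11.9 CPM (2.18 to 26.5) to 2.31 (1.62 to 5.79). Egr1 fell by 2.16 ± 0.59 (adjusted p = 0.0317), from a median of 43.4 CPM (9.67 to 186) to 15.1 (9.17 to 25.1). Both sets of libraries overlapped at their low ends. The Fos call was lost without MetR_CE replicate 4 (adjusted p = 0.0501) or 6 (adjusted p = 0.0522). The Egr1 call was lost without any of 6 of the 27 libraries, with adjusted p up to 0.0855, and with shrunken fold changes.

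**Figure D2:**
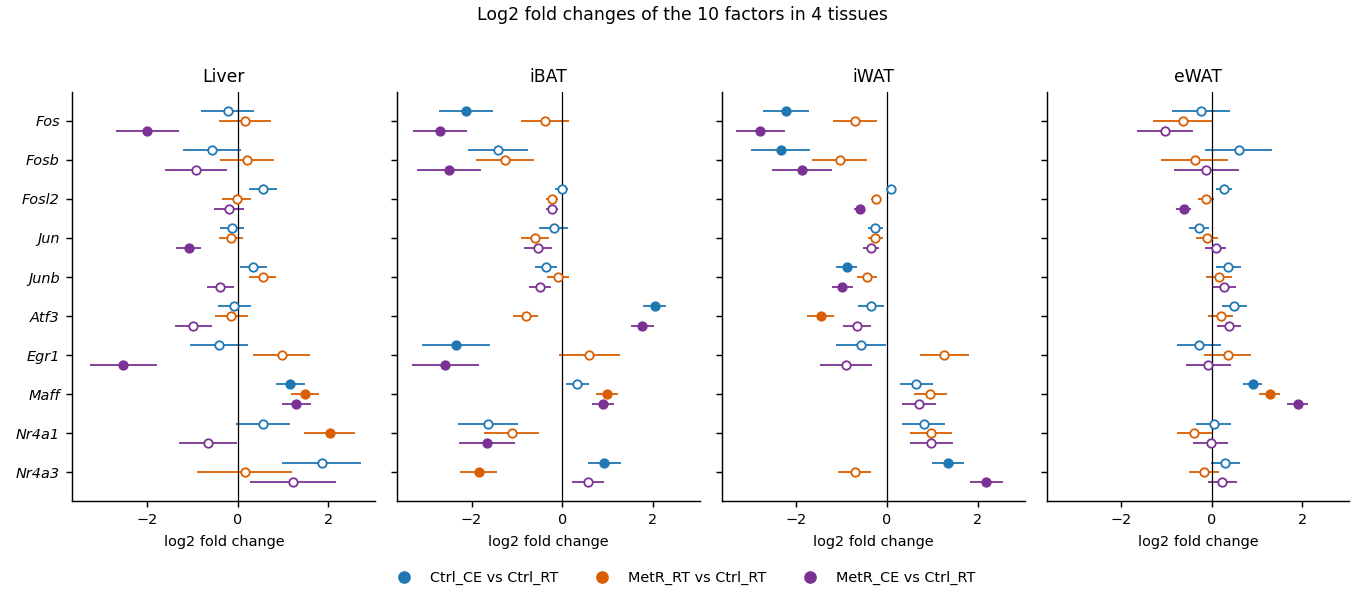
Log2 fold change of each gene (points, with bars of 1 standard error) in each tissue for Ctrl_CE, MetR_RT and MetR_CE, each against Ctrl_RT, with filled points for called genes and open points for the rest. Atf3 in iBAT stood at 2.04 for cold and 1.76 for both together, and Fos stood at -2.12 for cold in iBAT and -2.24 in iWAT.

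In liver, cold called only Maff on the control diet, 1 of 10 members beside 11.9% of all 22143 genes (7.28% up and 4.64% down). Maff lay between 1.41 and 3.43 CPM in Ctrl_RT (median 2.14) and between 2.14 and 15.2 in Ctrl_CE (median 3.71), with overlap, and rose by 1.16 ± 0.32 (adjusted p = 0.006). The 15.2 CPM came from the mouse with high neutrophil markers, and without it the rise was 0.70 (adjusted p = 0.0244). Junb and Fosl2 leaned on the same mouse. Fosl2 was at 60.4 CPM in that liver and at 6.88 to 16.6 in the other 6, and its log2 fold change was 0.56 ± 0.31 with it and -0.11 without it, called in neither case. Junb was at 120 CPM there and at 18.2 to 40.9 elsewhere, with values of 0.34 ± 0.29 and -0.13. Of the members not called in liver, Nr4a3 stood at 1.85 on counts near 0 (adjusted p = 0.118), and Fosb, Egr1, Fos, Jun, Atf3 and Nr4a1 lay between -0.56 and 0.56. Liver endothelial markers summed to 47.6 to 67.1 CPM in Ctrl_RT and to 90.4 to 171 CPM in Ctrl_CE, and their part in the Maff difference was not tested.

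On the MetR diet in liver, Fos, Jun, Junb, Egr1 and Nr4a1 were all lower in MetR_CE than in MetR_RT. These 5 of 10 members stood beside 5.18% of all genes called (2.75% up and 2.44% down). Egr1 lay between 10.7 and 72.2 CPM in MetR_RT (median 31.8) and between 1.54 and 8.03 in MetR_CE (median 2.45). The groups did not overlap, and Egr1 fell by 3.49 ± 0.73 (adjusted p = 0.000879). Nr4a1 fell by 2.69 ± 0.59 (adjusted p = 0.00143), from a median of 6.34 CPM (1.04 to 32.2) to 1.52 (1 to 2.69). Fos fell by 2.17 ± 0.68 (adjusted p = 0.0243), from a median of 1.27 CPM (0.156 to 4.93) to 0.462 (0.159 to 0.744). Jun fell by 0.94 ± 0.27 (adjusted p = 0.0145), from a median of 17.6 CPM to 7.54, and Junb by 0.93 ± 0.30 (adjusted p = 0.0258), from 49.6 CPM to 23. Except for Egr1, the groups overlapped. The Fos call was lost without MetR_RT replicate 2 or 4 (adjusted p up to 0.0714), and the Junb call without MetR_RT replicate 2 or 4 or MetR_CE replicate 1 or 5 (adjusted p up to 0.0665).

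In eWAT the cold called only Maff on the control diet and no member on the MetR diet. On the MetR diet 2 members, Fosl2 and Maff, had an unadjusted p below 0.05 by edgeR's test, and DESeq2 called 1, or 0 with shrunken fold changes. The backgrounds were 2.42% of 27786 genes called on the control diet (0.979% up) and 0.112% on the MetR diet. Maff was at 4.42, 6.9, 7.77 and 4.08 CPM in the 4 Ctrl_RT libraries and at 8.58 to 15.3 in Ctrl_CE (median 8.94). The tested groups did not overlap, and the rise was 0.90 ± 0.22 (adjusted p = 0.0188). The highest of the left-out Ctrl_RT libraries, given at the end, lay within the Ctrl_CE range. It was not called without Ctrl_RT replicate 1 (0.79, adjusted p = 0.095) or replicate 7 (0.77, adjusted p = 0.0844). Fos was at 3.07, 27.2, 13.2 and 9.6 CPM in Ctrl_RT and at 3.52 to 33.5 in Ctrl_CE (median 5.09), and Egr1 at 11.6, 62.4, 43.9 and 30.3 CPM against 17.7 to 48.1 (median 28.7). Both overlapped throughout, and the 9 members not called lay between -0.28 and 0.59. Hepatocyte markers in these eWAT libraries summed to 3405 to 6814 CPM in Ctrl_RT and to 240 to 4352 CPM in Ctrl_CE, and their part was not tested.

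Methionine restriction at 22 °C changed few members, and Maff was called in 3 of the 4 tissues. In liver, Maff and Nr4a1 were called, 2 of 10 beside 6.91% of all genes (2.88% up and 4.02% down). Maff lay between 4.81 and 8.81 CPM in MetR_RT (median 5.95) and above every Ctrl_RT library, a rise of 1.49 ± 0.31 (adjusted p = 0.000907). In iBAT its medians were 31.8 CPM in Ctrl_RT (15.5 to 45.1) and 62.7 in MetR_RT (26.5 to 93.5), with overlap, and it rose by 0.98 ± 0.25 (adjusted p = 0.0134). In eWAT it lay between 10.2 and 21 CPM in MetR_RT (median 13.8), above the 4 Ctrl_RT libraries tested, and rose by 1.27 ± 0.23 (adjusted p = 0.0135). The highest of the left-out Ctrl_RT libraries, given at the end, lay within that MetR_RT range. Only 0.115% of genes were called there, 9 of them up, so that Maff was 1 of 9. Maff was not called in eWAT without Ctrl_RT replicate 1 (1.17, adjusted p = 0.116) or replicate 7 (1.14, adjusted p = 0.0779), nor with all libraries. In iWAT its medians were 9.29 CPM in Ctrl_RT (6.65 to 39.9) and 21.4 in MetR_RT (6.89 to 62.7), and the value of 0.95 ± 0.37 did not pass (adjusted p = 0.0617). One Ctrl_RT library, replicate 5, was at 39.9 CPM while the other 6 lay between 6.65 and 13.4. Without it the iWAT values were 1.50 for the diet at 22 °C (adjusted p = 0.000802), 1.18 for cold on the control diet (adjusted p = 0.00404) and 1.26 for both together (adjusted p = 0.00231), all called.

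Nr4a1, Nr4a3 and Atf3 were each called for the diet at 22 °C in 1 tissue. Nr4a1 in liver lay between 1.02 and 5.3 CPM in Ctrl_RT (median 1.61) and between 1.04 and 32.2 in MetR_RT (median 6.34), with overlap, and rose by 2.03 ± 0.56 (adjusted p = 0.00996). It was not called without MetR_RT replicate 4, its highest library (1.38, adjusted p = 0.0653). Nr4a3 in iBAT had medians of 2.23 CPM in Ctrl_RT and 0.652 in MetR_RT, with overlap, and fell by 1.85 ± 0.41 (adjusted p = 0.0046). That was 2 of 10 members called in iBAT, with Maff, beside 2.50% of all genes. The library names of the 3 iBAT libraries with unlike tags, and the other tissues of the same mice, carried the condition of the title. The Nr4a3 result changed with the grouping of those libraries, and its call held without them. With those libraries grouped by tag it was -0.44 (adjusted p = 0.709), and with them left out it was -1.69 (adjusted p = 0.0145). The cold value of Nr4a3 on the MetR diet was 1.21 by tag (adjusted p = 0.146) and 2.27 without the 3 libraries (adjusted p = 0.000213). Atf3 in iWAT lay between 7.61 and 22.4 CPM in Ctrl_RT (median 10.4) and between 1.48 and 6.66 in MetR_RT (median 5.34). No library overlapped, and it fell by 1.46 ± 0.30 (adjusted p = 0.000764), the only member called in iWAT beside 11.6% of all genes (7.36% down). The members not called for the diet at 22 °C lay between -0.14 and 0.97 in liver, -1.26 and 0.59 in iBAT, -1.05 and 1.26 in iWAT and -0.64 and 0.35 in eWAT. Macrophage markers in iWAT summed to 82.2 to 330 CPM in MetR_RT against 413 to 665 CPM in Ctrl_RT, and their part in the Atf3 difference was not tested.

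In the cold, the diet set Fosl2 apart in both white fat depots. MetR_CE against Ctrl_CE called 1 of 10 members in iWAT beside 2.27% of all genes, and 2 in eWAT beside 4.35%. Fosl2 in iWAT lay between 41.3 and 47.6 CPM in MetR_CE (median 45.8) and between 60.4 and 88.8 in Ctrl_CE (median 73.1). The ranges did not overlap, and Fosl2 fell by 0.69 ± 0.12 (adjusted p = 0.00442). In eWAT it lay between 37.9 and 66.4 CPM in MetR_CE (median 47.8) and between 63.6 and 122 in Ctrl_CE (median 98), with overlap, and fell by 0.89 ± 0.15 (adjusted p = 0.000477). The highest Ctrl_CE library of both depots was the mouse with high neutrophil markers, and without it Fosl2 was at -0.64 in iWAT (adjusted p = 0.00474) and -0.82 in eWAT (adjusted p = 0.000762). In iBAT the Fosl2 ranges were 34.3 to 50.2 CPM in MetR_CE and 37.9 to 68.8 in Ctrl_CE, and edgeR called no member beside 1.64% of all genes, with 1, Maff, at an unadjusted p below 0.05 and none called by DESeq2. The other eWAT gene was Maff, which lay between 15.9 and 26.5 CPM in MetR_CE (median 21.2), above every Ctrl_CE library, and rose by 0.99 ± 0.18 (adjusted p = 0.00107). In liver only Jun was called, beside 5.26% of all genes (4.1% down). Jun lay between 5.91 and 11.6 CPM in MetR_CE (median 7.54) and between 10.1 and 36.6 in Ctrl_CE (median 13.2), with overlap, and fell by 0.96 ± 0.28 (adjusted p = 0.0187). Without Ctrl_CE replicate 4 it was at -0.65 (adjusted p = 0.0701).

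**Figure D3:**
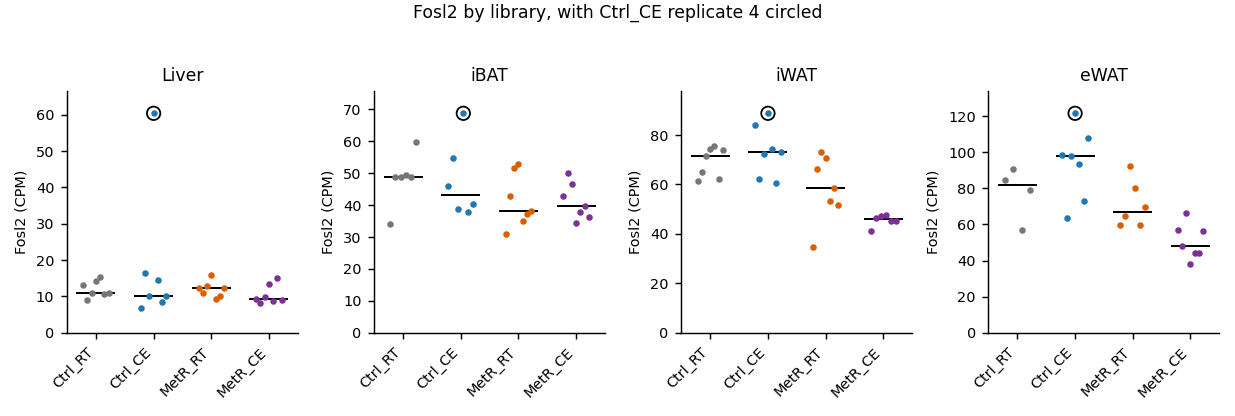
Levels in CPM of Fosl2 in each library of the 4 tissues by group, with a bar at the group median and Ctrl_CE replicate 4 marked. In iWAT the MetR_CE libraries lay between 41.3 and 47.6 CPM and the Ctrl_CE libraries between 60.4 and 88.8 CPM.

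MetR_CE against Ctrl_RT combined both changes and shared its controls with 2 of the comparisons above. In iBAT it called 6 of 10 members, 4 of them lower, beside 14.7% of all genes (10.3% down). Fos fell by 2.70 ± 0.60 (adjusted p = 0.000753), Fosb by 2.51 ± 0.70 (adjusted p = 0.00609) and Egr1 by 2.58 ± 0.74 (adjusted p = 0.00677). Egr1 was at -1.76 without Ctrl_RT replicate 3 (adjusted p = 0.0572). Nr4a1 fell by 1.66 ± 0.62 (adjusted p = 0.0394) and lost its call without any of 9 of the 26 libraries, with adjusted p up to 0.103. Atf3 rose by 1.76 ± 0.25 (adjusted p = 1.45e-06) and Maff by 0.90 ± 0.25 (adjusted p = 0.00507). In iWAT it called 5 of 10 beside 22.4% of all genes (8.05% up and 14.4% down), with Fos at -2.79 ± 0.55 (adjusted p = 0.000189), Junb at -0.98 ± 0.24 (adjusted p = 0.00166) and Nr4a3 at 2.19 ± 0.36 (adjusted p = 2.22e-05), none of which overlapped. Fosb was at -1.88 ± 0.66 there (adjusted p = 0.026), but at -1.26 without Ctrl_RT replicate 3 (adjusted p = 0.121), and it also lost its call without MetR_CE replicate 2, 5 or 6. Fosl2 in iWAT was at -0.60 ± 0.12 (adjusted p = 0.000207) without overlap, close to the fold threshold, and was at -0.57 or -0.58, below that threshold, without Ctrl_RT replicate 4 or 5 or MetR_CE replicate 1.

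In liver the combined comparison called 4 of 10 members beside 13.5% of all genes (6.25% up and 7.22% down). Fos fell by 1.99 ± 0.70 (adjusted p = 0.0282), Jun by 1.08 ± 0.28 (adjusted p = 0.00283) and Egr1 by 2.52 ± 0.74 (adjusted p = 0.00873). Maff rose by 1.30 ± 0.32 (adjusted p = 0.00194), without overlap. Egr1 was at -1.79 without Ctrl_RT replicate 1 (adjusted p = 0.06) and Fos at -1.53 without Ctrl_RT replicate 3 (adjusted p = 0.107). Fos also lost its call without MetR_CE replicate 4, 5 or 7, with adjusted p up to 0.0535. In eWAT it called 2 of 10 beside 1.30%. Maff rose by 1.89 ± 0.23 (adjusted p = 8.07e-05), its 7 MetR_CE libraries lying between 15.9 and 26.5 CPM and above the 4 Ctrl_RT libraries. Fosl2 was at 84.4, 90.6, 56.7 and 79.3 CPM in Ctrl_RT and fell by 0.62 ± 0.17 (adjusted p = 0.0439), a call lost without any of 13 of the 24 libraries, with adjusted p up to 0.153.

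Whether the response to cold differed between the diets was tested as an interaction. Only Nr4a1 in liver passed, at -3.25 ± 0.83 (adjusted p = 0.0394), 1 of 10 members beside 1.06% of all genes. It lost its call without any of 16 of the 28 libraries, with adjusted p from 0.0223 to 0.0697. Cold gave 0.56 ± 0.59 for Nr4a1 on the control diet and -2.69 ± 0.59 on the MetR diet. Egr1 in liver was at -3.08 ± 0.97 (adjusted p = 0.0926), Nr4a3 in iWAT at 1.56 ± 0.51 (adjusted p = 0.084) and Fosl2 in eWAT at -0.76 ± 0.23 (adjusted p = 0.0667). No member passed in iBAT, iWAT or eWAT, where 0.372%, 1.65% and 2.30% of all genes were called. In these 3 tissues 1, 3 and 1 members had an unadjusted p below 0.05 by edgeR's test, and DESeq2 called 0, 1 and 1. For the remaining members, different outcomes on the 2 diets or at the 2 temperatures are therefore not shown to differ.

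The responses of tissues were set against each other in 1 fit of all 16 groups over 32143 genes. For 10 members and 6 pairs of tissues, cold on the control diet and the diet at 22 °C gave 120 differences, of which 10 had an adjusted p below 0.05. Atf3 accounted for 5 of them. Its response to cold was larger in iBAT than in iWAT by 2.40 ± 0.43 on the log2 scale (adjusted p = 1.25e-05), and than in eWAT by 1.54 ± 0.46 (adjusted p = 0.0215), and liver minus iBAT was -2.08 ± 0.46 (adjusted p = 0.000328). Its response to the diet was lower in iWAT than in eWAT, by a difference of -1.65 ± 0.46 (adjusted p = 0.0168), and than in liver, where liver minus iWAT was 1.35 ± 0.44 (adjusted p = 0.0272). For Junb, liver minus iWAT in the cold was 1.25 ± 0.37 (adjusted p = 0.00876) and iWAT minus eWAT was -1.26 ± 0.41 (adjusted p = 0.043). For Nr4a1, iBAT minus iWAT in the cold was -2.43 ± 0.76 (adjusted p = 0.0203), and liver minus iBAT on the diet was 3.15 ± 0.82 (adjusted p = 0.00956). Among Ctrl_CE libraries, the mouse with high neutrophil markers was highest for Junb in liver, iWAT and eWAT. The same mouse was highest for Nr4a1 in iBAT and iWAT, and this fit was not run without it. For Fosb, iWAT minus eWAT in the cold was -2.94 ± 0.95 (adjusted p = 0.0425). Between 6.86% and 19% of all genes passed the same threshold for cold, and between 0.121% and 12.6% for the diet, so that 10 of 120 was no more than many pairs held overall. With the mouse as a block in limma's voom fit, 9 of 120 passed, and the Fosb difference and the liver minus iBAT difference of Nr4a1 had adjusted p of 0.17 and 0.2. Libraries of a mouse had a consensus correlation of 0.033 over all genes in that fit. It also used another test, so the part of the block cannot be told apart.

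Within groups, Egr1, Fos, Fosb and Nr4a1 were among the more variable genes between mice. For Egr1 the within-group SD of log2 CPM was 1.60 in iBAT, 1.38 in liver, 1.09 in iWAT and 0.86 in eWAT. Over all genes averaging at least 1 CPM, the median SD was 0.160, 0.189, 0.217 and 0.212 in the same order. Egr1 exceeded 99.5%, 99.7%, 98.3% and 93.6% of these genes, and Fos, with an SD between 0.98 and 1.22, exceeded 99.4%, 99.5%, 97.8% and 95.2%. Nr4a1 exceeded 99.5%, 99.6%, 97.5% and 91% of genes. Fosb, with an SD of 1.40 in iBAT, 0.77 in liver, 1.31 in iWAT and 1.18 in eWAT, exceeded 99.4%, 98.2%, 98.7% and 95.7%, and its SD was the largest of the members in both white depots. In liver Fosb averaged 0.221 CPM, below the 1 CPM floor of the genes beside it. The part of low counts in that SD was not tested. Fosl2 had the smallest SD of the members in the fat depots, where it was 0.27, 0.23 and 0.29 (iBAT, iWAT, eWAT), and 52.5% of iWAT genes varied less. In liver Jun had the smallest, at 0.54, followed by Fosl2 and Junb at 0.57 each.

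Some members varied with Fos from library to library. With group means removed, Pearson's r of log2 CPM between Fos and each other member was computed in every tissue, and 27 of 36 relations had an adjusted permutation p below 0.05. These were 8 of 9 in liver, 7 of 9 in each of iBAT and iWAT, and 5 of 9 in eWAT. In liver, Fosb and Nr4a3 rested on counts near 0, with means of 0.221 and 0.0954 CPM. By Spearman's rho their adjusted permutation p was 0.0639 and 0.112. With a prior count of 0.5 in the log2 CPM, Nr4a3 in liver had an adjusted permutation p of 0.0706 by r. The same threshold was not applied to all genes, and many genes outside the list lay as near to Fos as the weaker members did. Ranked by r among genes averaging at least 1 CPM, Egr1 in liver was number 548 and Atf3 number 1011 of 12513, and in eWAT Nr4a3 was number 986, Jun 1180, Maff 1221 and Fosl2 1750 of 14475. In iBAT, over 26 libraries, Fos and Egr1 gave r = 0.93 and Spearman's rho = 0.88, each with a permutation p of 1e-05, the smallest that 100000 permutations can give, and adjusted p of 6e-05 and 9e-05. Without the 2 libraries farthest from the median of Fos, r was 0.92, and the other gene was not used to choose them here or below. Fos gave r of 0.93 with Junb, 0.92 with Jun and 0.92 with Nr4a1 in iBAT, and of 0.90, 0.89 and 0.89 without the 2 farthest libraries. In liver the closest was Nr4a1 (r = 0.84, rho = 0.77, permutation p = 1e-05 and 0.0001, adjusted 6e-05 and 0.00045, n = 28), at 0.81 without the 2 libraries. Egr1, the closest in the white depots, gave r = 0.80 in iWAT (rho = 0.79, permutation p = 3e-05 and 6e-05, adjusted 0.000154 and 0.00036, n = 27) and 0.85 in eWAT (rho = 0.85, permutation p = 1e-05 for both, adjusted 6e-05 and 9e-05, n = 24). Without the 2 farthest libraries these were 0.77 and 0.86. The lowest value was 0.31, for Fosl2 in eWAT. Among all genes averaging at least 1 CPM, the 3 nearest to Fos were Nr4a1 (0.84), Btg2 (0.78) and Sik1 (0.74) in liver, Ier2 (0.95), Egr1 (0.93) and Junb (0.93) in iBAT, Egr1 (0.80), Ccn1 (0.79) and Zfp36 (0.73) in iWAT, and Egr1 (0.85), Fosb (0.82) and Snx6 (0.76) in eWAT. These are descriptions across libraries of 28 mice, and the part of dissection and sequencing was not tested.

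**Figure D4:**
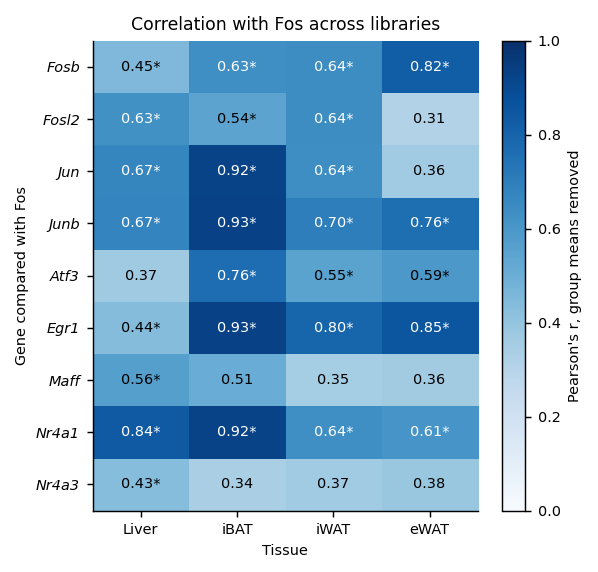
Pearson's r between Fos and each other member over the libraries of each tissue, on log2 CPM with group means removed, with a star where the adjusted permutation p was below 0.05. Values ran from 0.31 for Fosl2 in eWAT to 0.93 for Egr1 and Junb in iBAT.

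For some members, a mouse high in one tissue tended to be high in another. Over the mice with both libraries and with group means removed, 21 of 60 relations between tissues had an adjusted permutation p below 0.05. Fos passed in 5 of 6 pairs of tissues, Junb and Nr4a1 in 4, Egr1 in 3, Fosl2 in 2, Fosb, Jun and Maff in 1, and Atf3 and Nr4a3 in none. The same threshold was not applied to all genes. Among genes averaging at least 1 CPM in both tissues, r of Nr4a1 in liver and iBAT exceeded 99.8% of genes. That of Nr4a1 in iWAT and eWAT exceeded 73.9%, and that of Maff in liver and eWAT 8.35%. Egr1 in iWAT against eWAT had the highest r, 0.83 (rho = 0.81, permutation p = 1e-05 for both, adjusted p = 0.0006 for both, n = 23 mice). It was 0.74 without the 2 mice farthest from the median in the first-named tissue, and mice were dropped in the same way below. Egr1 in iBAT against iWAT gave r = 0.77 (rho = 0.78, permutation p = 0.0003 and 2e-05, adjusted 0.0045 and 0.0006, n = 25), and 0.77 without the 2 farthest. Egr1 in liver followed none of the fat depots, with r of 0.05 against iBAT, 0.06 against iWAT and -0.11 against eWAT. Nr4a1 did relate liver to iBAT, with r = 0.74 (rho = 0.70, permutation p = 0.0008 and 0.00093, adjusted 0.00763 and 0.0112, n = 26), and 0.69 without the 2 farthest mice. Fos in iBAT against iWAT gave r = 0.71 (rho = 0.71, permutation p = 0.00196 and 0.00231, adjusted 0.0147 and 0.0173, n = 25), and 0.76 without them. Junb in liver against iWAT gave r = 0.69 (rho = 0.71, permutation p = 4e-05 and 0.00012, adjusted 0.0008 and 0.0018, n = 27), and 0.73 without them. The median r of the members was 0.60 between iBAT and iWAT, 0.51 between iWAT and eWAT and 0.48 between iBAT and eWAT, beside medians over all genes of 0.15, 0.16 and 0.13. Between liver and the fat depots it was 0.32 for iBAT, 0.37 for iWAT and 0.22 for eWAT, beside 0.10, 0.09 and 0.07. Tissues of 1 mouse share its death and its handling, and the part of either was not tested.

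**Figure D5:**
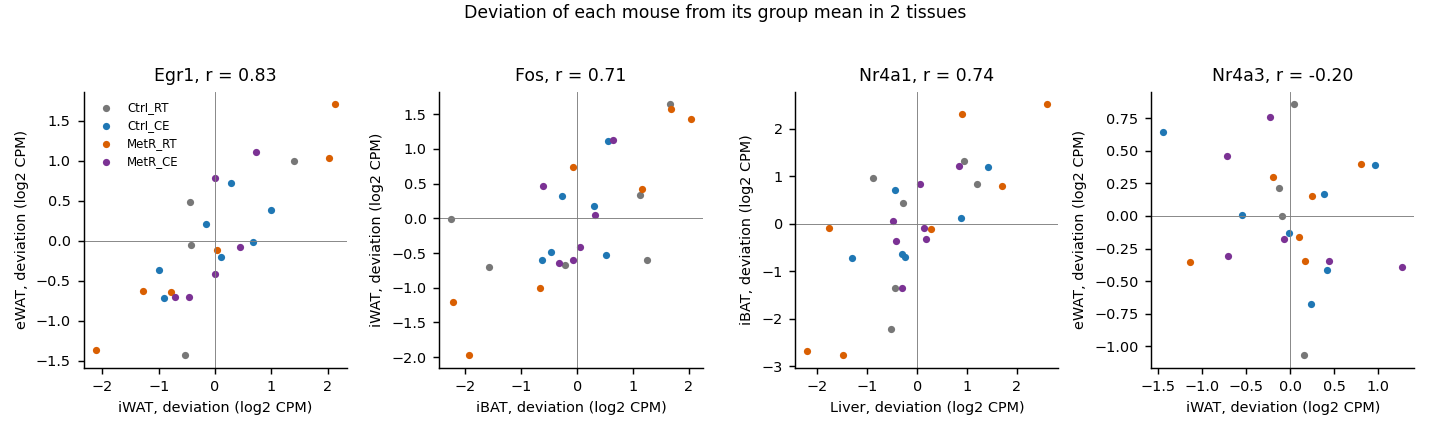
Deviation of each mouse from its group mean (log2 CPM) in one tissue against another, 1 point a mouse coloured by group, for Egr1 (iWAT and eWAT), Fos (iBAT and iWAT), Nr4a1 (liver and iBAT) and Nr4a3 (iWAT and eWAT). Egr1 followed the diagonal with r = 0.83 over 23 mice, and Nr4a3 did not, with r = -0.20.

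Genes of the same pathways were counted in the same fits. Of 20 other immediate early genes, cold on the control diet raised 3 and lowered 9 in iWAT, raised 3 and lowered 2 in iBAT and in liver, and called none in eWAT. Beside these stood the shares of all genes given above, 5.99% up and 9.94% down in iWAT, 4.97% and 9.72% in iBAT, and 7.28% and 4.64% in liver, so that the 2 of 20 lowered in iBAT lay near the share of all genes. The median log2 fold change of the 20 in iWAT was -0.49, beside -0.11 over all genes. The nuclear receptor Nr4a2 rose in iWAT by 1.25 ± 0.17 (adjusted p = 5.53e-06), as its relative Nr4a3 did, whereas the cytokine signalling inhibitor Socs3 fell by 1.50 ± 0.27 (adjusted p = 0.000138) and Egr2 by 1.06 ± 0.29 (adjusted p = 0.00606). In iBAT the antiproliferative gene Btg2 fell by 1.25 ± 0.34 (adjusted p = 0.00397). In liver Klf4 rose by 1.11 ± 0.22 (adjusted p = 0.000228) while Ier2 fell by 0.87 ± 0.15 (adjusted p = 3.94e-05). The diet at 22 °C raised none and lowered 5 of the 20 in iWAT, raised 3 and lowered 2 in liver, lowered 2 in iBAT and called none in eWAT. The shares of all genes were 4.25% up and 7.36% down in iWAT, 2.88% and 4.02% in liver, and 0.535% and 1.97% in iBAT.

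Feedback inhibitors of ERK and p38 dephosphorylate or block kinases upstream of Egr1 and Fos. Of 13, 6 rose and 1 fell in the cold in iWAT, 4 rose in iBAT, 2 rose in eWAT, and 1 rose and 1 fell in liver. Of all genes 5.99% rose in iWAT, 4.97% in iBAT, 0.979% in eWAT and 7.28% in liver, and the 1 of 13 in liver lay near that share. Spry4, an inhibitor of the ERK cascade, rose by 1.45 ± 0.22 in iBAT (adjusted p = 4.49e-06), by 1.57 ± 0.27 in iWAT (adjusted p = 8.37e-05) and by 1.42 ± 0.34 in eWAT (adjusted p = 0.0182), but fell by 0.75 ± 0.17 in liver (adjusted p = 0.00118). The phosphatase Dusp4 rose by 1.18 ± 0.21 in iWAT (adjusted p = 0.000114) and by 1.41 ± 0.28 in eWAT (adjusted p = 0.00566). The diet at 22 °C raised 4 and lowered 2 of the 13 in iWAT, raised 3 and lowered 1 in liver, lowered 1 in iBAT and raised 1 in eWAT, where 0.0324% of all genes rose.

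Among 12 AP-1 and Maf partners, cold lowered 5 in iWAT and raised 2 in iBAT, and none was called in liver, where 11 were tested, or in eWAT. The diet lowered 6 in iWAT and 1 in iBAT, raised 1 and lowered 1 in liver, and called none in eWAT. Of all genes, cold lowered 9.94% in iWAT and raised 4.97% in iBAT, and the diet lowered 7.36% in iWAT. Batf, a partner found in immune cells, was at -1.42 ± 0.28 in iWAT for cold (adjusted p = 0.000325) and at -2.03 ± 0.29 for the diet (adjusted p = 4.19e-05). Macrophage markers in iWAT moved with it, as given above, and their part was not tested. Jund, the third Jun gene, rose by 0.65 ± 0.10 in iBAT in the cold (adjusted p = 1.11e-05), and the small Maf gene Mafg rose with the diet in liver by 0.62 ± 0.09 (adjusted p = 5.24e-06). Of 19 genes of the SRF, ERK and JNK pathway, cold raised 2 in liver, 1 in iWAT and 1 in eWAT, beside 7.28%, 5.99% and 0.979% of all genes, and the diet called none in any tissue. Of 10 CREB, CRTC and ATF/CREB factors, cold raised Atf4 in iBAT, by 0.66 ± 0.14 (adjusted p = 0.000415), and no other was called for cold on the control diet or for the diet at 22 °C in any tissue.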

How the data were processed

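Poly(A)-selected RNA of liver, iBAT, iWAT and eWAT was sequenced as paired-end reads, and the authors deposited 3 tables of raw counts for each gene (whole numbers), 1 for liver, 1 for iBAT and iWAT together and 1 for eWAT. The submitters' processing notes name mm10, STAR 2.7.9a, featureCounts 2.0.3, Salmon 1.9.0, MultiQC 1.19 and DESeq2 1.46.0; which counter made the tables is not settled by the sources used here. Counts carried no normalization. Of 56884 identifiers, 51948 were paired with a symbol. No column was left unused.

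Groups were taken from the sample titles. In iBAT the treatment tags of MetR_RT replicate 1, Ctrl_CE replicate 1 and MetR_CE replicate 1 named other groups than the titles. The main fits left out the 5 libraries named above, in the numbers that the study's outlier step excluded. Genes that reached 10 counts in total in a tissue were fitted with edgeR 4.0.16 (R 4.3.3): TMM normalization, quasi-likelihood F-tests, 1 fit of the 4 groups per tissue, two-sided, Benjamini-Hochberg adjustment over all genes tested. CPM values of the members are counts scaled to 1000000 counts of a library total adjusted by the TMM factors of its tissue. Libraries left out of the tests were scaled with factors from all libraries of the tissue. Marker sums used the unadjusted library total. Correlations used TMM-scaled log2 CPM with a prior count of 2 and 100000 permutations within groups. Tissues were compared in 1 fit of 16 groups, and limma 3.58.1 (voom) with the mouse as a block was the alternative. DESeq2 1.42.0 with and without apeglm 1.24.0, other normalization, filters, dispersion, samples, a replicate block and each library left out were tried. Scripts ran in Python 3.11.15 with pandas 2.3.3, numpy 2.4.6, SciPy 1.17.1 and matplotlib 3.10.9.

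Libraries of a group came from separate mice, whereas the tissues of a mouse were not independent. The fitting step was tested on simulated data. The 10 members and the related lists were chosen with earlier results of these data known. All 10 members were named, with the 3 genes nearest to Fos in each tissue and, of the lists, up to 4 called genes of at least 1 CPM with the largest change were eligible to be named. The main fits did not use replicate numbers to pair samples, and the numbers served as a block only in an alternative fit. Depth limited the low genes: Fosb and Nr4a3 held at most 11 counts in any liver library. Protein sequences were not analysed here, and neither was the promoter of Egr1.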

Additional observations from a re-analysis of the deposited data

Results flagged for a closer look

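In 10 of 160 combinations of member, tissue and group, the highest or the lowest library lay far from all others of its group (Dixon's gap test at 95%), and chance alone gives about 1 in 20. Of the 10, 3 were the liver of Ctrl_CE replicate 4, where Fosl2 was at 60.4 CPM (other libraries 6.88 to 16.6), Jun at 36.6 CPM (10.1 to 16.5) and Junb at 120 CPM (18.2 to 40.9). In iBAT, Fosl2 in Ctrl_RT replicate 1 was low at 34.1 CPM (48.7 to 59.7), and in MetR_CE replicate 6 Jun was high at 59.5 CPM (31.4 to 41.3) and Egr1 at 25.7 CPM (3.37 to 6.71). In iWAT, Atf3 in MetR_RT replicate 1 was low at 1.48 CPM (3.69 to 6.66) and Maff in Ctrl_RT replicate 5 high at 39.9 CPM (6.65 to 13.4). In eWAT, Jun was low in Ctrl_RT replicate 1 at 53.4 CPM (92.9 to 103) and in Ctrl_CE replicate 5 at 43.1 CPM (63.6 to 83.8).

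Responses that differed between tissues were tested as differences of log2 fold changes. For cold on the control diet these were Atf3, at -2.08 for liver minus iBAT, 2.40 for iBAT minus iWAT and 1.54 for iBAT minus eWAT. Junb was at 1.25 for liver minus iWAT and -1.26 for iWAT minus eWAT, Nr4a1 at -2.43 for iBAT minus iWAT and Fosb at -2.94 for iWAT minus eWAT. The mouse with high neutrophil markers was the highest Ctrl_CE library for Junb and Nr4a1 in these tissues. The fit was not run without that mouse. For the diet at 22 °C they were Nr4a1, at 3.15 for liver minus iBAT, and Atf3, at 1.35 for liver minus iWAT and -1.65 for iWAT minus eWAT. This fit treated the tissues of a mouse as independent. In limma's voom fit with the mouse as a block, the Fosb difference and the liver minus iBAT difference of Nr4a1 did not pass. The block and the change of test cannot be told apart in this. Nr4a1 in liver also differed between the diets in its response to cold, at -3.25.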

How the results depend on the processing

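Of 240 comparisons of a member, 50 were called. Of these, 30 kept their call under every alternative run, 20 lost it under at least 1, and none changed sign, while 22 comparisons gained a call under at least 1. The number of members called moved by over 1.5 times in these comparisons. The liver interaction had 1 call, against 3 with DESeq2, 2 with apeglm and 0 with robust dispersion. MetR_CE against Ctrl_CE in liver had 1, against 3 with DESeq2 and 2 with edgeR's own expression filter or with only the compared groups. MetR_RT against Ctrl_RT had 2 in iBAT and 1 with groups by treatment tag, 1 in iWAT and 2 with DESeq2, apeglm or the expression filter, and 1 in eWAT and 0 with only the compared groups or with all libraries. Ctrl_CE against Ctrl_RT in eWAT had 1, and 0 with only the compared groups. MetR_CE against Ctrl_RT in eWAT had 2, and 1 with apeglm, without the filter, with only the compared groups, with the replicate block or with all libraries. The interaction had 0 in iWAT and 1 with DESeq2, and 0 in eWAT and 1 with DESeq2, apeglm, the expression filter or the replicate block. MetR_CE against MetR_RT in eWAT had 0, and 1 with DESeq2. Other comparisons moved by 1 call. MetR_CE against Ctrl_RT went from 4 to 5 in liver with DESeq2, apeglm, the expression filter or only the compared groups, from 6 to 5 in iBAT with robust dispersion or groups by tag, and from 5 to 4 in iWAT with apeglm. MetR_CE against MetR_RT went from 5 to 4 in liver with robust dispersion, from 4 to 3 in iBAT by tag, and from 3 to 2 in iWAT with apeglm or only the compared groups. In iBAT, cold on the control diet went from 4 to 3 with DESeq2, apeglm, robust dispersion, groups by tag or without the 3 libraries of differing tag, and to 5 with the expression filter, no filter, only the compared groups or the replicate block, and the diet at 22 °C from 2 to 3 with DESeq2. The causes were not tested.

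With each library left out in turn, the counts ranged as follows, in the order cold, diet, both, interaction, cold on MetR and diet in the cold. In liver they were 1 to 1, 1 to 2, 3 to 5, 0 to 1, 3 to 5 and 0 to 2. In iBAT they were 2 to 5, 2 to 4, 4 to 7, 0 to 1, 4 to 4 and 0 to 0. In iWAT they were 4 to 5, 1 to 2, 4 to 6, 0 to 1, 1 to 3 and 1 to 1. In eWAT they were 0 to 1, 0 to 1, 1 to 2, 0 to 1, 0 to 0 and 2 to 2. Relations with Fos passed in 26 of 36 with a prior count of 0.5 and in 29 with all libraries, and relations between tissues in 22 of 60 under each.

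Equal replicate numbers named different mice in different groups. Over all genes, same-numbered libraries deviated from their group means with r from -0.20 to 0.22 in liver and -0.60 to 0.59 in iBAT. In iWAT r ran from -0.42 to 0.61 and in eWAT from -0.59 to 0.70. The main fits therefore did not use the numbers as pairs. For the members alone, the highest and lowest libraries of a group gathered at certain numbers, as given under the other observations. The replicate block changed no count of calls other than those named above. Few libraries in eWAT Ctrl_RT limit that tissue, where the self-test on simulated data recovered least.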

Other observations

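Across the 160 combinations of member, tissue and group, the library numbered 4 was the highest of its group in 67. The mouse with high neutrophil markers, Ctrl_CE replicate 4, added to the 67 through all its tissues. Its liver library was the highest for 9 members, its iBAT library for 5, its iWAT library for 6 and its eWAT library for 3. The library numbered 3 was the highest in 42, whereas the library numbered 1 was the highest in 7 and the lowest in 55. Numbers 1, 3 and 6 had a library in all 160 combinations, numbers 2 and 4 in 150, number 5 in 140 and number 7 in 130. The library numbered 5 was the lowest in 30, number 2 in 21, number 6 in 20, number 7 in 17, number 3 in 9 and number 4 in 8. In 22 of 28 pairs of group and number, the libraries of all tissues came from 1 mouse, so the tissues are not independent counts. The labels do not say whether the numbers follow the order of dissection.

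The 3 eWAT Ctrl_RT libraries left out of the tests, replicates 2, 4 and 5, held Egr1 at 15.2, 101 and 15.4 CPM, Fos at 3.9, 20.6 and 11.7 CPM, and Nr4a1 at 5.5, 42 and 19.3 CPM. Maff was at 5.73, 8.22 and 11.3 CPM in them, and Fosl2 at 66, 62.1 and 69.1 CPM.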
